A study of Xenopus laevis with 12 samples.

Results

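*Xenopus laevis* embryos exposed to thioridazine in large cohorts of 300 were compared with embryos exposed to the same drug in small cohorts of 100. The 6 libraries made from thioridazine embryos, 3 per cohort size, were taken by their labels from the 12 libraries of the series, and the other 6 were untreated embryos raised in cohorts of the same sizes. All embryos were wild type, and each library held RNA of 15 pooled tadpoles at stage 35 (the developmental stage in the sample titles), extracted from the whole animal, depleted of ribosomal RNA and sequenced. Thioridazine was given at 90 µM from the end of gastrulation onward, and the volume of medium was scaled to the number of embryos, so that drug per embryo was meant to be equal. The labels and the study's methods differ on whether exposure lasted until sampling or ended earlier. Whether these pools were taken from different dishes or clutches is not said in the labels, so the p-values below measure the spread between these pools, which may be technical.

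The comparison asks whether the response of an embryo to a teratogen differs with the number of embryos exposed beside it. Thioridazine, an antipsychotic of the phenothiazine class, is a blocker of dopamine receptors. Among the genes compared here are those of 3 systems. Hatching gland cells of the tadpole head secrete astacin metalloproteases, such as UVS.2, that digest the egg envelope. Ionocytes of the larval skin move protons and chloride across the epidermis with a V-type ATPase and exchangers such as pendrin. The integrated stress response is a program in which phosphorylation of the initiation factor eIF2 raises the transcription factors ATF4 and CHOP (*ddit3*) and, through them, genes of amino acid uptake and synthesis.

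The expected counts of the 6 thioridazine libraries summed to between 5356407 and 7497662, and those of all 12 libraries to between 4887343 and 7497662. A gene with 0 counts could therefore have a level of up to 0.4 to 0.614 CPM (counts scaled for library size), which is 3 counts. *ddit3.L* lay at 6.11 to 21.1 CPM in the 6 thioridazine libraries and at 1.68 to 3.16 CPM in the 6 control libraries. It was chosen with earlier results of these data known, so it is no independent check of the drug label. Thioridazine small replicate 1 and thioridazine large replicate 2 stood apart, farthest from the controls. On the first principal component of the 12 libraries, which held 29.1% of the variance, the small-cohort libraries lay at 63.6, 28.9 and 20.1, the large-cohort libraries at 4.1, 47.0 and 15.8, and the controls between -38.3 and -22.6. On the first component of the 6 thioridazine libraries alone (29.8% of the variance), the small-cohort libraries lay at 53.8, 19.7 and -4.8. The large-cohort libraries lay there at -38.6, 1.4 and -31.5, so large replicate 2 was in the middle. Results are also given without the 2 libraries that stood apart from the controls. Ribosomal RNA genes held 0.065%, 0.0933% and 0.0952% of the counts in the small cohorts and 0.104%, 0.215% and 0.1% in the large cohorts. These groups did not overlap (two-sided exact permutation p = 0.1, the smallest that 3 libraries against 3 allow). The control libraries also split by cohort size, with 0.107%, 0.0938% and 0.115% in the small and 0.16%, 0.313% and 0.229% in the large cohorts. The part of this difference in the results below was not tested.

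Over all 25553 genes tested, the median log2 change was -0.00017 and 50% of genes were higher in the large cohorts, which the scaling between libraries largely fixes, and the median standard error was 0.16 on the log2 scale. The libraries of a cohort size lay only slightly nearer to each other than to those of the other size, with a pseudo-F (the ratio of between-group to within-group distances) of 1.28, which 4 of the 20 arrangements of the 6 libraries reached (one-sided exact permutation p = 0.2). On the 500 most variable genes the pseudo-F was 1.58 and p was 0.1, the smallest possible.

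By limma at an adjusted p under 0.05, 3 genes rose in the large cohorts (0.0117% of genes tested) and 16 fell (0.0626%). All 19 had 3 large-cohort libraries that did not overlap the 3 small-cohort libraries, as did 5.44% of all genes in the upward and 5.27% in the downward direction. At an unadjusted p under 0.05, 861 genes (3.37%) were higher and 906 (3.55%) lower. When 2 surrogate variables (unmeasured axes of variation estimated from the data) were held in the model, the calls were 5 upward (0.0196%) and 19 downward (0.0744%), and 14 genes passed in both fits. The calls rest on the spread pooled over all 12 libraries. In a limma fit of the 6 thioridazine libraries alone 0 genes were called, with 1344 at an unadjusted p under 0.05 and a smallest adjusted p of 0.133. Without thioridazine large replicate 1, or without thioridazine large replicate 2, limma also called 0 genes, with 1713 and 1813 at an unadjusted p under 0.05. Against the 16 lower genes, 4 were called without thioridazine large replicate 3, 5 without thioridazine small replicate 1, 7 without control large replicate 2 and 37 without thioridazine small replicate 3, and the last fit called 11 higher genes where the others called 0 to 4. Without both libraries that stood apart it called 0 genes, with 1543 at an unadjusted p under 0.05, the 19 genes among them, and the smallest adjusted p was 0.0807. On rounded counts edgeR's quasi-likelihood test called 18 of the 19 genes and DESeq2 all 19.

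**Figure D1:**
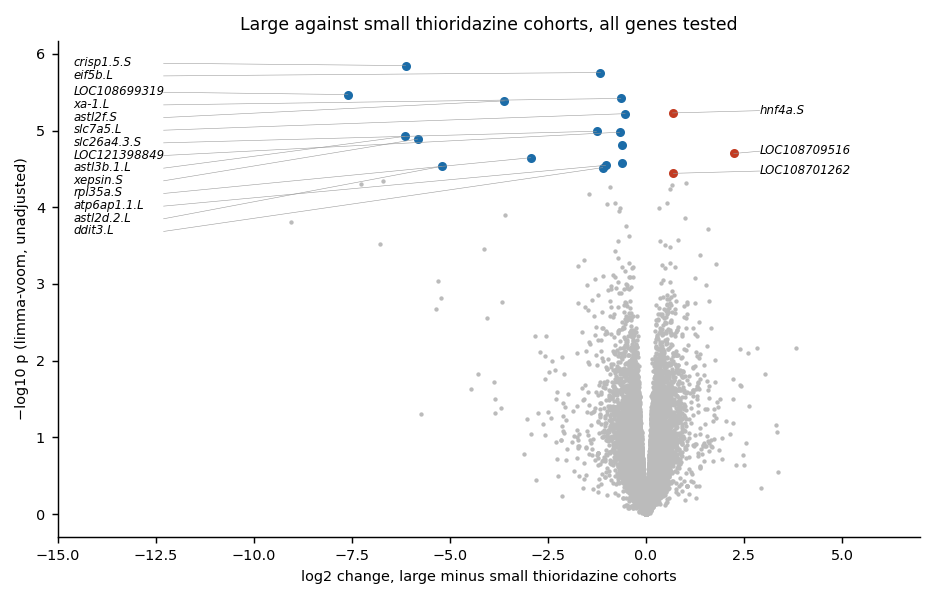
Each point is 1 of the 25553 genes tested, with its log2 change, large minus small thioridazine cohorts, on the horizontal axis and −log10 of its unadjusted p from limma on the vertical axis. The 3 genes called higher are red and the 16 called lower are blue, with 17 of the 19 named, and the bulk of genes lies around a change of 0.

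The largest falls were in secreted proteases and cysteine-rich secretory proteins of the kind that hatching gland and skin cells make. On the list of 17 hatching gland and astacin genes 11 were lower and 6 higher, and 5 were called lower. The median log2 change was -0.69, the same when genes at 0 counts were set to their bounds. This median was -3.61 with a filter of 5 CPM, -0.27 with 2 surrogate variables and -0.34 without thioridazine small replicate 1. The filter can take members of low level off the list, so its median need not cover the same genes. Of 22 astacin, UVS.2-like, *crisp1* and *xepsin* genes tested, 16 were lower and 6 higher. Limma called 6 lower, and 10 with 2 surrogate variables, beside 0.0626% and 0.0744% of all genes tested. In every large-cohort library 12 were at least 4 times lower than in each of the other 9 libraries, which had at least 1 CPM. That search was made after the values were seen, and the share of all genes tested that met this rule is not given here. The gene *syt13.S*, outside these families and described further below, met it too. Without the 4-fold rule, every large-cohort library lay below every small-cohort library in 12 of the 22, beside 5.27% of all genes tested. These 12 genes together had 223, 279 and 130.1 CPM in small-cohort libraries 1, 2 and 3, and 0.853, 3.58 and 1.22 CPM in large-cohort libraries 1, 2 and 3. In the 6 control libraries their sum was 194 to 264 CPM, and small-cohort library 3 lay below that range. The low level of the large cohorts against the other 9 libraries is what chose these 12 genes, so the sums are a description. The 10 other genes of these families, set apart by the same choice, summed to 246, 224 and 233 CPM in the small cohorts. They summed to 293, 296 and 255 CPM in the large cohorts and 232 to 304 CPM in the controls. All 22 genes, without that choice, summed to 468, 503 and 363 CPM in the small cohorts and 294, 299 and 257 CPM in the large cohorts. Their sum in the controls was 454 to 555 CPM. In RNA of whole animals, fewer cells of a type and less RNA per cell cannot be told apart.

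*LOC108699319*, annotated as embryonic protein UVS.2-like, had 14.6, 22.9 and 10.9 CPM in the small cohorts and 0 counts in each of the 3 large-cohort libraries. The controls had 10.8 to 22.2 CPM. Its 298 counts in the small cohorts against 0 made it at least 100.2-fold lower in the large cohorts, taking 3 counts over the group as the floor, with an adjusted p of 0.0209 (limma). *astl3b.1.L*, an astacin-like metalloendopeptidase, had 3.26, 7.86 and 5.87 CPM in the small cohorts, 0 counts in the large cohorts and 7.4 to 15.3 CPM in the controls. It was at least 36.7-fold lower (adjusted p = 0.0299). *crisp1.5.S*, a cysteine-rich secretory protein, had 5.9, 6.98 and 4.1 CPM in the small cohorts, 0 counts in the large cohorts and 4.08 to 8.21 CPM in the controls, and was at least 35.1-fold lower (adjusted p = 0.0209). In all 3 genes every large-cohort library was at 0 and every other library of the series was above its floor.

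*astl2d.2.L*, another astacin, had 5.78, 5.76 and 2.62 CPM in the small cohorts and a single count over the 3 large-cohort libraries. Its controls had 5.21 to 9.15 CPM, and the ratio of small to large cohorts was 85.9 (95% counting interval 15.0 to 3432, adjusted p = 0.0431). Such intervals and floors cover counting error only. *astl2f.S* had 5.56, 6.88 and 4.54 CPM in the small cohorts and 0.426, 0.619 and 0.174 CPM in the large cohorts, against 6.46 to 10.8 CPM in the controls. This gene fell by 3.61 on the log2 scale (SE 0.52, adjusted p = 0.0209). *xepsin.S*, an epidermis-specific serine protease, had 24.5, 32.6 and 19.2 CPM in the small cohorts, 0.284, 0.464 and 0.349 CPM in the large cohorts and 24.6 to 41.5 CPM in the controls, and fell by 5.82 (SE 0.92, adjusted p = 0.0299). All large-cohort libraries lay below all other libraries in these 3 genes as well.

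The other 6 low genes of these families were not called by limma in the main fit, and 4 of them were called with 2 surrogate variables. *astl3a.1.L* had 71.1, 94.2 and 34.0 CPM in the small cohorts, 1 count over the 3 large-cohort libraries and 50.1 to 72.7 CPM in the controls. The ratio was 1214 (counting interval 217 to 47971), with an adjusted p of 0.113 without and 0.00839 with 2 surrogate variables. *LOC108705791* (UVS.2-like) had 23.6, 37.5 and 14.6 CPM against 0, 0.467 and 0 CPM, a ratio of 156 (52.9 to 757), with adjusted p-values of 0.0574 and 0.012. *LOC108718284*, annotated as a cysteine-rich venom protein, had 12.9, 13 and 3.91 CPM against 0 counts, at least 59.2-fold lower, with adjusted p-values of 0.0574 and 0.012. In each of these genes small-cohort library 3 had the lowest level of the small cohorts, and it still exceeded every large-cohort library. *LOC121397175* (UVS.2-like) had 21.9, 31.8 and 10.2 CPM against 0, 0.715 and 0 CPM, with adjusted p-values of 0.183 and 0.0335. *LOC121397312* (UVS.2-like) and *astl2e.2.L* were not called in either fit. The former had 11.6, 13.9 and 3.24 CPM against 0.142, 0.365 and 0 CPM (a ratio of 56.9, 19.1 to 279), the latter 22, 5.9 and 16.9 CPM against 0, 0.774 and 0.523 CPM (log2 change -5.36, SE 1.45, adjusted p = 0.431).

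**Figure D2:**
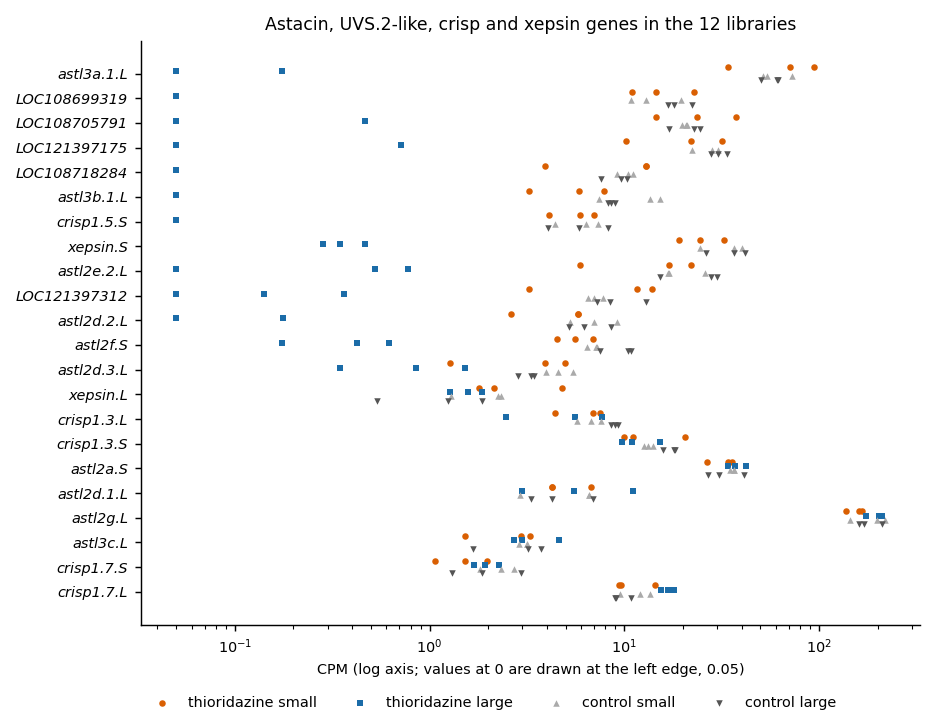
Levels of the 22 genes (CPM, log axis, with 0 drawn at 0.05) in each of the 12 libraries, coloured by group. In 12 genes the 3 large thioridazine libraries lie to the left, apart from the other 9 libraries, which lie together.

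The low genes lay on 5 chromosomes of the RefSeq assembly Xenopus_laevis_v10.1, and 10 of the 12 had another low gene within 3 places in gene order. No such count was made for the other genes of these families, some of which also lie beside low genes. On chromosome 8L, *LOC121397175*, *LOC121397312*, *astl3a.1.L*, *LOC108705791*, *LOC108699319* and *astl3b.1.L* followed each other, interrupted only by a pseudogene that was not tested. The genes on either side differed little, with a log2 change of -0.00042 for *LOC108699302* and 0.38 for the astacin *astl3c.L* (adjusted p = 0.874). On chromosome 5S the low genes *crisp1.5.S* and *LOC108718284* stood between *crisp1.3.S* (log2 change -0.17) and *crisp1.7.S* (0.42). On chromosome 4L *astl2d.2.L* and *astl2e.2.L* were low. Of the genes between them, *tpcn2.L*, which encodes an endolysosomal cation channel, had a log2 change of 0.023, and the astacin *astl2d.3.L* had 4.95, 1.28 and 3.92 CPM against 0.853, 1.53 and 0.349 CPM (-1.77, SE 0.58, adjusted p = 0.581), with overlapping groups. The astacin *astl2g.L*, beyond *nadsyn1.L* (0.19), had 167, 138 and 161 CPM in the small cohorts and 209.5, 202 and 174 CPM in the large cohorts. The other 2 low genes stood alone, *astl2f.S* on chromosome 4S and *xepsin.S* on chromosome 9_10S. The homeolog *xepsin.L* had a log2 change of -0.69 (SE 0.44, adjusted p = 0.818). Reads that match several copies of a tandem family were divided among them by estimation, so the split between neighbouring copies is uncertain.

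**Figure D3:**
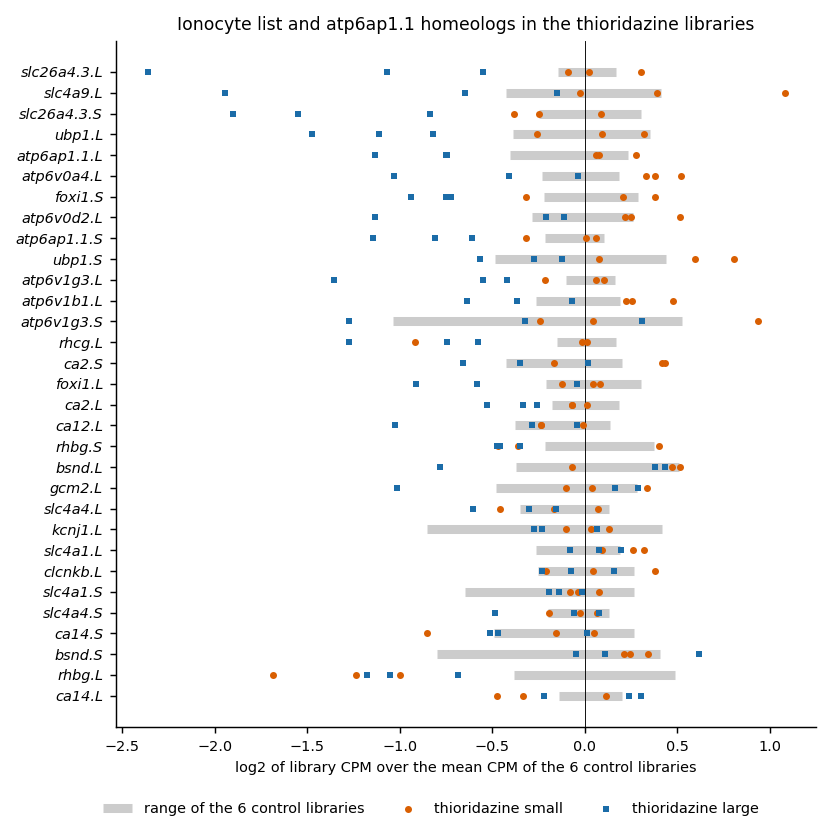
Each row is a gene of the ionocyte list or a copy of *atp6ap1.1*, with the log2 level of each thioridazine library relative to the mean of the 6 controls on the horizontal axis and the control range as a grey bar. Of the 29 list genes 27 had a negative change, and in 11 every large-cohort library lies left of every small-cohort library. The same holds for both copies of *atp6ap1.1*.

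Genes of ionocytes were mostly lower in the large cohorts. Of the 29 genes on the ionocyte list 27 had a negative change, 14 of them with an unadjusted p under 0.05. In 11 every large-cohort library was below every small-cohort library, and 1 fell. Over all genes tested these shares were 3.55% lower at that p, 5.27% below without overlap and 0.0626% called lower. On this list edgeR called 1 gene and DESeq2 3. The median log2 change of the list was -0.33, beside -0.00017 over all genes, and the same list had a median of -0.15 between the control cohorts. The 29 genes summed to 786, 725 and 738 CPM in the small cohorts, 478, 571 and 588 CPM in the large cohorts and 705 to 775 CPM in the controls. The sums in the small thioridazine cohorts were near those of the controls, whereas every large-cohort library lay below them all.

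The gene that fell was *slc26a4.3.S*, a copy of pendrin, which exchanges chloride for bicarbonate. It had 71.0, 51.2 and 56.3 CPM in the small cohorts and 17.9, 22.8 and 37.4 CPM in the large cohorts, against 56.3 to 82.5 CPM in the controls. The gene fell by 1.26 (SE 0.20, adjusted p = 0.0297), and the adjusted p was 0.0504 with 2 surrogate variables. Its homeolog *slc26a4.3.L* had 66.7, 50.7 and 54.9 CPM in the small cohorts and 10.5, 25.7 and 36.9 CPM in the large cohorts, with a log2 change of -1.44 (SE 0.27) that missed the threshold (adjusted p = 0.0667). In both homeologs large-cohort library 1 was the lowest and large-cohort library 3 the highest of the large cohorts, and neither gene's groups overlapped.

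The V-type ATPase, a proton pump of acidic organelles and of the ionocyte membrane, is built from subunits with wide and with restricted expression. Of 41 subunit genes 32 had a negative change and 1 fell, beside 0.0626% of all genes tested that fell. The median of the 41 was -0.14 (-0.092 between the control cohorts). The 5 that are also on the ionocyte list were all lower, with a median of -0.76 (-0.26 between the control cohorts). They summed to 156, 134 and 131 CPM in the small cohorts, 57.3, 95.5 and 97.2 CPM in the large cohorts and 102 to 128 CPM in the controls. Here the small cohorts lay above every control library and the large cohorts below. The other 36 had a median of -0.13 (-0.037 between the control cohorts) with 27 lower. Among the 5, *atp6v0a4.L*, whose product anchors the pump's membrane sector, had 54.3, 49.1 and 47.5 CPM in the small cohorts and 18.5, 28.5 and 36.8 CPM in the large cohorts (log2 change -0.92, SE 0.17, adjusted p = 0.0581). *atp6v1b1.L*, a subunit of the catalytic sector, had 42.8, 35.9 and 36.8 CPM against 19.8, 29.4 and 23.9 CPM (-0.67, SE 0.13, adjusted p = 0.0849). Neither passed the threshold by limma. DESeq2, which called 34 lower genes in all, called 2 of these 5 genes and 4 of the 41, and edgeR called 0 and 1.

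The subunit gene that fell, *atp6ap1.1.L*, encodes an accessory protein of the pump and is not on the ionocyte list. It had 15.1, 14.9 and 17.3 CPM in the small cohorts, 6.53, 8.51 and 8.55 CPM in the large cohorts and 10.8 to 16.8 CPM in the controls, a fall of 1.03 (SE 0.18, adjusted p = 0.0431, 0.0669 with 2 surrogate variables). *atp6ap1.1.S* had 17.4, 21.8 and 22.6 CPM against 9.82, 14.2 and 12.4 CPM (log2 change -0.79, SE 0.15, adjusted p = 0.0798). The groups of both homeologs were apart, with all large-cohort libraries lower.

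Among the 24 ionocyte genes that are not pump subunits 22 had a negative change, with a median of -0.28 (-0.14 between the control cohorts). *foxi1.L* and *foxi1.S* encode the forkhead factor that specifies ionocytes, and they had log2 changes of -0.54 (SE 0.18, adjusted p = 0.577) and -0.88 (SE 0.24, adjusted p = 0.427). *foxi1.S* had 9.59, 5.92 and 8.51 CPM in the small cohorts and 3.85, 4.38 and 4.47 CPM in the large cohorts, whereas the groups of *foxi1.L* overlapped. *ubp1.L*, a transcription factor that promotes the ionocyte fate in *Xenopus*, had 5.37, 4.59 and 3.6 CPM against 1.99, 1.55 and 2.44 CPM, without overlap (log2 change -1.13, SE 0.31, adjusted p = 0.442). *insrr.L*, a receptor kinase that senses alkaline pH, had 9.59, 9.17 and 10 CPM against 2.7, 5.57 and 6.28 CPM, and both cohort sizes lay below the control range of 11.3 to 17.8 CPM. *ca2.L*, a carbonic anhydrase, had 107, 101 and 101 CPM against 73.6, 88.5 and 84.1 CPM. Neither *insrr.L* nor *ca2.L* passed the threshold (adjusted p = 0.317 for each). The chloride exchanger genes *slc4a1.L* and *slc4a1.S*, which red blood cells also express, had changes of -0.15 and -0.10.

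The integrated stress response was lower in the large cohorts and lay between the small cohorts and the controls. Of 36 genes on that list 32 had a negative change, 20 of them with an unadjusted p under 0.05. In 17 every large-cohort library was below every small-cohort library, and 2 fell. In the other direction 2 were higher at that p, and in 2 every large-cohort library was above. Over all genes tested 3.55% were lower at that p, 5.27% were below without overlap and 0.0626% fell. Upward, 3.37% were higher and 5.44% above. On this list edgeR called 1 gene and DESeq2 2. The median log2 change of the list was -0.37, and it was 0.019 between the control cohorts. The genes summed to 1985, 1957 and 1846 CPM in the small cohorts, 1489.7, 1695 and 1630.5 CPM in the large cohorts and 1252 to 1381 CPM in the controls, so that the 3 ranges did not overlap. In 31 of the 36 genes the mean of the large cohorts was nearer to the controls on the log2 scale than that of the small cohorts, compared with 55.9% of all genes.

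*slc7a5.L*, the light chain of a carrier for large neutral amino acids, had 186, 183 and 183 CPM in the small cohorts and 133, 129 and 119 CPM in the large cohorts. Its controls had 76.9 to 122 CPM, and it fell by 0.53 (SE 0.079, adjusted p = 0.022, 0.0454 with 2 surrogate variables). Without the drug it was also lower in the large cohorts, with 122, 103 and 104 CPM in small and 88.8, 76.9 and 89.5 CPM in large control cohorts. That change was -0.36 (SE 0.085, adjusted p = 0.137), and the difference of the 2 changes was -0.17 (adjusted p = 0.759). *ddit3.L*, which encodes the factor CHOP, had 21.1, 18.5 and 17.2 CPM in the small cohorts and 6.11, 11.9 and 9.42 CPM in the large cohorts, a fall of 1.1 (SE 0.19, adjusted p = 0.0431, 0.0725 with 2 surrogate variables). It kept the call in 5 of 24 alternatives, the fewest among the 19 called genes. For both genes all large-cohort libraries lay below the small-cohort libraries, and for *ddit3.L* they also lay above all controls. The homeolog *ddit3.S* had 8.81, 6.22 and 5.34 CPM against 1.14, 3.93 and 4.54 CPM (log2 change -1.28, SE 0.37, adjusted p = 0.498).

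Other genes of the program were lower without passing the threshold. *chac1.L*, which degrades glutathione, had 68.9, 71.2 and 60.3 CPM in the small cohorts, 35.1, 57.9 and 41.3 CPM in the large cohorts and 16.2 to 23.3 CPM in the controls (log2 change -0.60, SE 0.14, adjusted p = 0.271). *mthfd2.L*, an enzyme of mitochondrial folate metabolism, had 135, 148 and 112 CPM against 86.3, 104 and 101 CPM (-0.44, SE 0.10, adjusted p = 0.317). *phgdh.S*, which starts serine synthesis, had 28.8, 49.1 and 31.2 CPM against 18.7, 25.4 and 21.8 CPM (-0.70, SE 0.17, adjusted p = 0.336). In these 3 genes the groups did not overlap. *atf3.L*, a transcription factor of the same program, had 25.5, 14.7 and 12.4 CPM against 3.55, 9.91 and 8.37 CPM, with controls of 2.05 to 3.34 CPM (-1.30, SE 0.31, adjusted p = 0.32). Not every member was lower to that extent. The transcription factor at the head of the program, *atf4.L*, had 216, 221 and 213 CPM against 191, 197 and 211 CPM (-0.12, SE 0.068, adjusted p = 0.787). Its groups did not overlap, but the change was small. *ddit4.L*, an inhibitor of mTORC1, had overlapping groups and a change of -0.04 (SE 0.18), and *sesn2.L*, a stress-induced sestrin, was higher (0.33, SE 0.14, adjusted p = 0.699).

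*eif5b.L* encodes the initiation factor that joins the ribosomal subunits. It had 48.0, 41.6 and 33.0 CPM in the small cohorts, 14.7, 21.0 and 18.5 CPM in the large cohorts and 10.2 to 13.6 CPM in the controls, and it fell by 1.16 (SE 0.16, adjusted p = 0.0209, 0.00839 with 2 surrogate variables). All 6 thioridazine libraries were above all controls, with the large cohorts the nearer. It was the only called gene among 101 translation factors, whose median change was 0.0069, beside 0.0626% of all genes called lower. Of the amino acid carriers, *slc1a4.L*, which carries small neutral amino acids, had 40.5, 46.5 and 37.4 CPM against 23.7, 26.3 and 27.6 CPM, and a log2 change of -0.68 (SE 0.13, adjusted p = 0.0894).

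**Figure D4:**
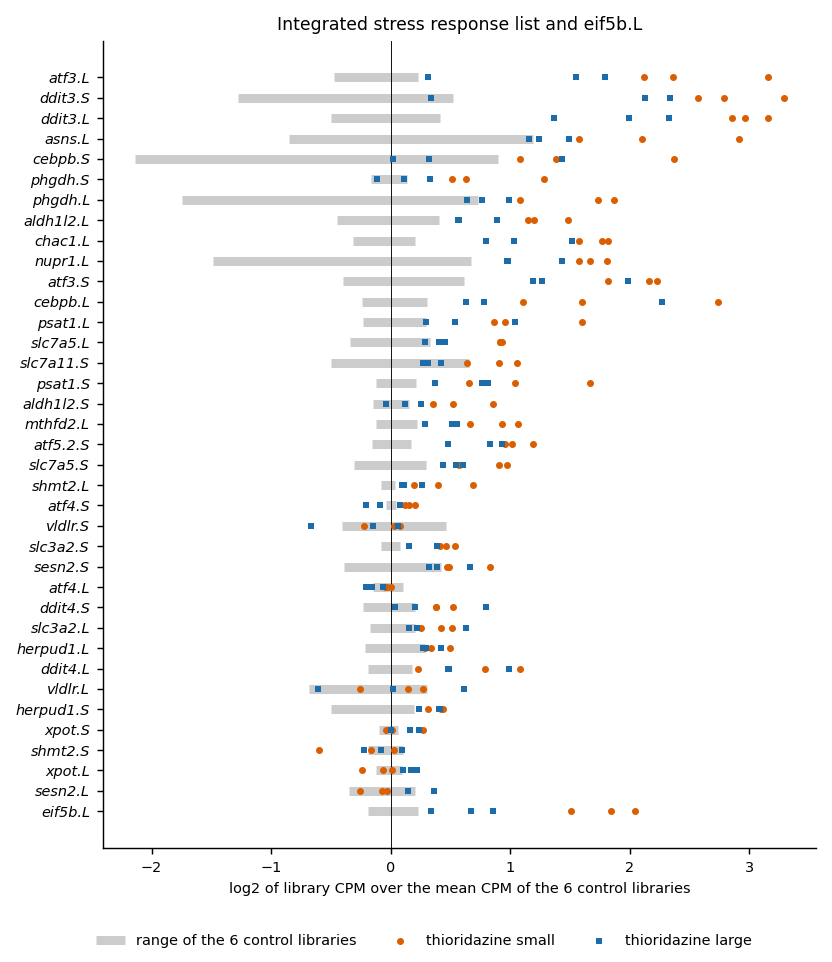
Each row is 1 of the 36 integrated stress response genes or *eif5b.L*, with the log2 level of each thioridazine library relative to the mean of the 6 controls and the control range as a grey bar. In 31 of the 36 genes the large-cohort mean was nearer to the controls than the small-cohort mean was. In 17 of the 36 every large-cohort library lies left of every small-cohort library.

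Among the other genes that fell, *LOC121398849*, annotated as an ATP-dependent RNA helicase DHX8-like, had 31.8, 36.8 and 33.1 CPM against 20.6, 20.9 and 22.6 CPM, a fall of 0.67 (SE 0.10, adjusted p = 0.0297). Its controls had 17.9 to 23.7 CPM and held all 3 large-cohort libraries. The related *dhx8.S* had a change of -0.11 (adjusted p = 0.832).

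*xa-1.L* encodes the anterior and ectodermic-specific protein XA-1. It had 85.5, 80.3 and 83.3 CPM in the small cohorts and 57.0, 47.9 and 54.6 CPM in the large cohorts, a fall of 0.64 (SE 0.092, adjusted p = 0.0209). Its controls had 88.4 to 141 CPM, above all 6 thioridazine libraries. A related gene, *LOC108696795*, had 9.41, 7.65 and 7.42 CPM against 3.26, 4.58 and 5.39 CPM (log2 change -0.90, SE 0.23, adjusted p = 0.354).

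*rpl35a.S*, a protein of the large ribosomal subunit, had 29.3, 18.5 and 35.7 CPM in the small cohorts, 5.43, 3.33 and 2.08 CPM in the large cohorts and 2.32 to 11.7 CPM in the controls. It was called (log2 change -2.94, SE 0.49, adjusted p = 0.0413), but it has neighbouring copies, *LOC108705784* and *LOC121393140*, whose sequences were not compared here. Mean levels in the small and large cohorts were 35.0 and 3.57 CPM for *LOC108705784* (log2 change -5.74). For *LOC121393140* they were 111 and 164 CPM (0.60). The log2 change of *LOC108705784* averages logarithms of single libraries and is larger than its mean levels imply. Summed over the 3 copies the levels were 167, 188 and 166 CPM in the small cohorts and 179.8, 168 and 165 CPM in the large cohorts, with a log2 change of -0.02 (SE 0.069, adjusted p = 0.976). The summed groups overlapped. Reads are divided among such copies by estimation, so the call is uncertain for the gene. The estimates went in both directions, and whether the RNA did so or reads were divided differently was not tested. The sum was chosen after the data were seen.

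The 3 genes that rose are *hnf4a.S*, *LOC108701262* and *LOC108709516*. *hnf4a.S*, a nuclear receptor of liver, gut and kidney epithelium, had 25.5, 26.3 and 25.1 CPM in the small cohorts and 38.2, 44.6 and 41.0 CPM in the large cohorts, a rise of 0.68 (SE 0.10, adjusted p = 0.022, 0.0123 with 2 surrogate variables). Its controls had 28.3 to 38.4 CPM, so the small cohorts lay below every control and 1 of the 3 large-cohort libraries lay within the control range. *LOC108701262*, an insulin-like growth factor-binding protein, had 22, 16.9 and 19.6 CPM against 29.4, 32.0 and 33.5 CPM, a rise of 0.70 (SE 0.12, adjusted p = 0.0485, 0.0533 with 2 surrogate variables), and the controls had 14.8 to 19.4 CPM. *LOC108709516*, annotated as uromodulin, a secreted zona pellucida domain protein, had 2.3, 0.655 and 1.2 CPM against 5.54, 5.11 and 7.68 CPM, a rise of 2.24 (SE 0.37, adjusted p = 0.0391, 0.0169 with 2 surrogate variables). Its controls were lower still, at 0.143 to 0.745 CPM. Of its relatives *LOC108709511* had a change of 0.43 and *LOC121397879* of -0.45, with adjusted p-values of 0.757 and 0.874.

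Holding 2 surrogate variables called 10 genes that the main fit did not call, 4 of them secreted protein genes above. Some of the 10 were also called under other alternatives. *tfrc.L*, the receptor for iron-loaded transferrin, had 87.0, 90.4 and 97.1 CPM in the small cohorts and 74.5, 54.0 and 67.9 CPM in the large cohorts (log2 change -0.50, SE 0.10, adjusted p = 0.125, 0.0134 with the variables). *h1-10.S*, a linker histone, had 54.6, 71.6 and 66.7 CPM against 50.2, 43.6 and 50.1 CPM (adjusted p = 0.354 and 0.0335). The groups of both genes did not overlap, with the large cohorts lower. *tf.L*, transferrin, had 269.9, 89.5 and 71.8 CPM against 59.3, 268 and 96.6 CPM, and its highest libraries were those that stood apart. Its change was -0.026 (SE 0.47) without and 0.87 with the variables (adjusted p = 0.995 and 0.0335), so its direction depends on the model. The other 3 genes were *rpl27a.S*, a ribosomal protein (0.92 without and 1.33 with the variables), *LOC108705602*, uncharacterized (1.29 and 1.98), and *sppl2b.L*, a signal peptide peptidase (-1.74 and -2.14), and their groups overlapped.

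Relative to the controls the 19 called genes fell into both kinds of position. In 8 of them the large-cohort mean was nearer to the control mean than the small-cohort mean was, on the log2 scale. Among these were *eif5b.L*, *slc7a5.L*, *ddit3.L*, *hnf4a.S*, *LOC121398849* and *rpl35a.S*. In the other 11, the 6 secreted protease and *crisp1* genes, *slc26a4.3.S*, *atp6ap1.1.L*, *xa-1.L*, *LOC108701262* and *LOC108709516*, the small cohorts were nearer. Among all genes the large cohorts were nearer in 55.9%, among genes with an unadjusted p under 0.05 in 62.4%, and among all genes without both libraries that stood apart in 53.8%.

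Cohort size was also compared without the drug. Between the large and small control cohorts 32 genes were called by limma, and 0 of the 19 genes were among them. In 12 of the 19 the change between the control cohorts had the same sign. The difference of the 2 changes was called for 5 genes (0.0196%), all with a more negative change under thioridazine. Without thioridazine large replicate 1 or 2 the count was 1 or 2, and without thioridazine small replicate 3 it was 40. The values are *LOC108699319* (log2 difference -8.01, adjusted p = 0.0161), *astl2f.S* (-4.01, 0.0161), *crisp1.5.S* (-6.05, 0.0163), *xa-1.L* (-1.09, 0.005) and the histone H3 gene *LOC121398066* (-8.44, 0.005). For the other 15 of the 19 genes it was not shown that the change with cohort size differed between treated and untreated embryos. *LOC121398066* had 2.25, 2.28 and 1.16 CPM in the small and 0, 0.48 and 0 CPM in the large thioridazine cohorts, which is 34 counts against 3 (a ratio of 11.5, counting interval 3.6 to 58.3). In the controls it had 0 counts in the small and 36 in the large cohorts. Fitted changes of genes with a group at 0 depend on the count added before the logarithm and are no bound.

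In all, 40 gene lists of 4 to 149 members were described, those above included, with 16 of them markers of cell types of 4 to 100 genes. Of the lists 30 held 0 genes called by limma, edgeR or DESeq2, with 130 of their members at an unadjusted p under 0.05. The shares of all genes tested at that threshold were 3.37% higher and 3.55% lower. Of 49 genes of liver, gut and pancreas 37 were higher, 12 of them with an unadjusted p under 0.05, and 1 rose (*hnf4a.S*), with a median of 0.18. The same list had a larger median between the control cohorts, 0.54. *apoh.L*, a plasma apolipoprotein, had 27.2, 22.6 and 21.0 CPM against 27.9, 35.6 and 31.0 CPM (log2 change 0.43, SE 0.12, adjusted p = 0.486). Multiciliated cell genes were higher in 71 of 95, 14 with an unadjusted p under 0.05, with a median of 0.16 (-0.09 between the control cohorts), and *spag6.L*, a protein of the ciliary axoneme, had 7.86, 6.39 and 9.07 CPM against 10.5, 13.8 and 13.4 CPM (0.67, SE 0.17, adjusted p = 0.368). DNA replication and mitosis genes were higher in 48 of 57, with a median of 0.16, and *cdc6.L*, a replication licensing factor, had 15.1, 13.3 and 14.3 CPM against 17.5, 18.7 and 19.5 CPM (adjusted p = 0.585). Larval skin keratins were higher in 19 of 28, with a median of 0.16. In the last 3 lists limma, edgeR and DESeq2 each called 0 genes, and the keratin and the replication lists had 6 and 9 members higher at an unadjusted p under 0.05.

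Muscle genes were lower in 58 of 70, with a median of -0.14. *neb.L*, nebulin, had 2269, 2289 and 2017 CPM in the small cohorts and 1768, 1203 and 1873 CPM in the large cohorts, the lowest in a library that stood apart (log2 change -0.46, SE 0.14, adjusted p = 0.498). Cartilage genes were lower in 31 of 42 (median -0.13), sterol synthesis genes in 39 of 49 (-0.10) and immediate early genes in 34 of 41 (-0.20). In these 4 lists 10, 5, 7 and 7 members were lower at an unadjusted p under 0.05, and limma, edgeR and DESeq2 each called 0. Melanophore markers were near 0 in median (0.053, and -0.058 to 0.078 over the alternatives, with 0 of 22 at an unadjusted p under 0.05 in either direction). *pmel.S*, the melanosome matrix protein, had 66.2, 78.5 and 83.7 CPM against 102, 78.7 and 84.7 CPM. The receptors that thioridazine is known to bind had a median of 0.15 over 17 genes (0.0014 to 0.63 over the alternatives), and *chrm1.L*, a muscarinic receptor, had 3.07, 1.97 and 3.2 CPM against 5.39, 5.42 and 5.23 CPM (0.96, SE 0.27, adjusted p = 0.447). Purinergic receptors and ATP release genes had a median of 0.091 over 44 genes, with *entpd2.L*, an ectonucleotidase, at 35.1, 41.0 and 45.5 CPM against 50, 52.6 and 51.6 CPM (0.34, SE 0.09, adjusted p = 0.429). Calcium release and entry channels had a median of 0.012 over 46 genes, which was negative under 5 alternatives. At an unadjusted p under 0.05, 2 receptor genes were higher, 4 purinergic genes were higher and 1 lower, and 5 calcium channel genes were lower. Over all genes tested 3.37% were higher and 3.55% lower at that threshold. In these 4 lists limma, edgeR and DESeq2 each called 0 genes.

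**Figure D5:**
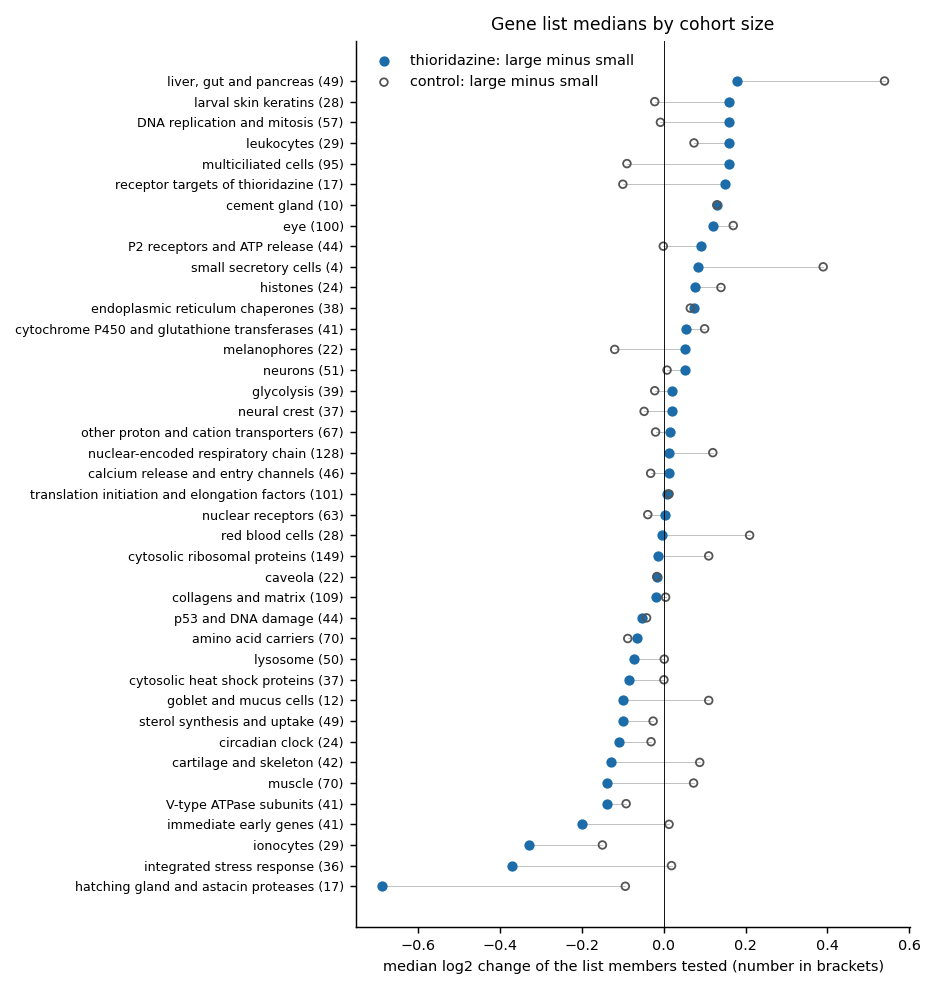
Median log2 change, large against small cohorts, of each of the 40 gene lists under thioridazine (filled) and in the controls (open). The hatching gland, integrated stress response and ionocyte lists have the lowest thioridazine medians, at -0.69, -0.37 and -0.33.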

How the data were processed

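RNA of 12 pools of whole *Xenopus laevis* embryos was measured, and the 6 thioridazine pools were compared by cohort size, with the groups taken from the sample titles. The submitters' processing notes and the study name fastp for trimming, Bowtie2 for reads of ribosomal RNA, STAR for alignment and RSEM for quantification. Libraries were made with a stranded kit, and the study gives a version for the ribosomal RNA sequence used with Bowtie2. Versions of the tools, the genome build of the STAR alignment and the strand setting of RSEM were not given in the sources used here. Deposited by the authors were expected counts (estimated counts, not scaled to depth) for 42638 genes, of which 32.6% of values were not whole, and log2 CPM values for 26050 genes. There were 0 columns of per-sample values left unused. Estimated counts are divided among homeologs (.L and .S) and tandem copies, so values of near-identical copies are uncertain.

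The 25553 genes with more than 1.8 CPM in 3 or more libraries were tested. TMM scaling (edgeR 4.0.16) and voom, lmFit and eBayes (limma 3.58.1, R 4.3.3) were applied to the expected counts of all 12 libraries in 4 groups. Adjusted p-values are two-sided Benjamini-Hochberg values of limma over all genes tested, called under 0.05. The study's methods name 2 surrogate variables (sva 3.50.0) for principal components and a batch that the labels do not give. The fit with 2 surrogate variables is printed beside the main values, and no batch was modelled. Counts were rounded only for DESeq2 1.42.0 and the quasi-likelihood test of edgeR. The fits were tested on simulated counts. Within groups the 12 library pairs differed by more than sampling noise (chi-square over its degrees of freedom 2.33 to 5.39), so none was repeat sequencing of the same library. The test cannot tell whether separate libraries came from the same RNA or dish. RefSeq records (Xenopus_laevis_v10.1) held 94.0% of the identifiers and were used for names and gene order only.

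The groups compared, the 40 gene lists and the tests were chosen with earlier results of these data known. The genes named were all genes called in the main fit or with 2 surrogate variables. Beside these were, for each list, the 2 members with the smallest p or members that define it. Pump subunits, purinergic and drug receptors and relatives of called genes were named too. So were the 10 genes with the smallest p in each direction among symbols whose libraries did not overlap. Some genes that this rule names, 2 of the 19 called genes among them, are not reported here. Other names were chosen after their values were seen, among them the ionocyte genes *insrr.L*, *ubp1.L* and *ca2.L* and the stress response genes other than *ddit3* and *slc7a5*. Alternatives were 1 or 2 surrogate variables, a replicate block, RLE scaling, filters of 5 CPM or of 1 count, quality weights, the deposited log2 table, the 6 libraries alone, other tools and each library left out in turn.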

Additional observations from a re-analysis of the deposited data

Results flagged for a closer look

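In 5 genes the change with cohort size under thioridazine differed from that in the controls by limma's interaction test. The difference of the log2 changes was -8.01 for *LOC108699319*, -6.05 for *crisp1.5.S* and -4.01 for *astl2f.S*, which are secreted proteases and a secretory protein that were low in the large thioridazine cohorts and not in the large control cohorts. The difference was -1.09 for *xa-1.L*, with 88.4 to 141 CPM in the controls and a mean of 53.2 CPM in the large thioridazine cohorts. Part of it lay in the controls, with 104, 94.5 and 88.4 CPM in small and 122, 128 and 141 CPM in large cohorts. The change was 0.44 in the controls (SE 0.082, adjusted p = 0.0504) and -0.64 under thioridazine. For the histone H3 gene *LOC121398066* the difference was -8.44, with 0 counts in small control cohorts and 3 counts in large thioridazine cohorts. This value therefore depends on the count added before the logarithm.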

How the results depend on the processing

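In the main model 3 genes were called higher, 16 lower and 5 for the difference from the controls. In the same order the counts were 5, 19 and 19 with 2 surrogate variables, 2, 18 and 23 with 1, 14, 34 and 55 with DESeq2, 4, 23 and 24 with edgeR, 3, 17 and 11 with no filter beyond 1 count, 4, 21 and 14 with the filter of 5 CPM, and 3, 23 and 23 with the deposited log2 table. The 6 thioridazine libraries alone gave 0 and 0. Without both libraries that stood apart, an alternative chosen after seeing the data, the counts were 0, 0 and 3. With each library left out in turn they ranged from 0 to 11, from 0 to 37 and from 1 to 40. The lowest counts came without thioridazine large replicate 1 (0, 0 and 1) or 2 (0, 0 and 2), and the highest without thioridazine small replicate 3 (11, 37 and 40), and 0 of the 19 genes kept the call without each of the 12 libraries. Group means of 2 libraries were assumed to vary like the other groups.

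The replicate block gave 2, 16 and 9. Its numbers do not pair the pools, since same-numbered libraries had correlated deviations of only -0.15 to 0.1 and 0 of the 6 thioridazine libraries matched their own number best. The pseudo-F was 1.58 on the 500 most variable genes, against 1.28. Of the genes called in the main fit or with 2 surrogate variables and those with the smallest p, only *tf.L* changed direction. Its change went from -0.026 to 0.70 and 0.87 with 1 and 2 surrogate variables. It was 0.47 and 0.092 without thioridazine large replicate 1 or 3, and 0.52 without thioridazine small replicate 1. Over libraries left out it ranged from -0.64 to 0.52. Of the list members and relatives named, *astl3c.L* (-0.13 to 0.55), *crisp1.3.S* (-0.41 to 0.15) and *ddit4.L* (-0.27 to 0.18) changed sign under an alternative. The median of the hatching gland list ranged from -3.61 to -0.27, that of ionocytes from -0.49 to -0.33 and that of the stress response from -0.45 to -0.26. The -3.61 came with the filter of 5 CPM, which can take members of low level off the list. The cause of these movements was not tested. Depth limits genes near 0 counts.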

Other observations

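The genes with the smallest p that were not called include several of metabolism and transport. *thnsl2.L*, a threonine synthase-like protein, had 5.62, 5.16 and 4.27 CPM in the small and 11.1, 8.98 and 10.4 CPM in the large thioridazine cohorts (adjusted p = 0.0574). *tuba1cl.2.S*, an alpha tubulin, had 85.6, 80.4 and 102 CPM against 125, 136 and 155 CPM (adjusted p = 0.0588). Both had groups that did not overlap, with the large cohorts higher, and *tuba1cl.2.S* was above all controls (77.3 to 119.5 CPM) in each large-cohort library. *apoe.L*, apolipoprotein E, had 152, 136 and 144 CPM against 188, 176 and 184 CPM (log2 change 0.34, SE 0.066, adjusted p = 0.0849). *g6pc1.1.S*, the catalytic subunit of glucose-6-phosphatase, had 5.18, 8.68 and 8.41 CPM against 14.8, 16.7 and 12.9 CPM, and *rbp4.S*, the plasma carrier of retinol, had 249.6, 298 and 273 CPM against 361, 386 and 348 CPM (adjusted p = 0.104 and 0.271).

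Among those lower in the large cohorts, *creb5.L*, a transcription factor that binds cAMP response elements, had 11.4, 11.7 and 11.9 CPM against 7.57, 6.99 and 6.97 CPM (log2 change -0.70, SE 0.16, adjusted p = 0.244). *man2b1.L*, a lysosomal mannosidase, had 40.6, 39.0 and 34.2 CPM against 29.3, 29.3 and 25.8 CPM (adjusted p = 0.268). The groups of both genes did not overlap either. *syt13.S*, a synaptotagmin chosen after its values were seen, had 9.59, 15.2 and 3.6 CPM against 0.284, 0 and 0.174 CPM, 170 counts against 3, a ratio of 57.3 (counting interval 19.3 to 280). Its controls had 2.47 to 5.57 CPM and its adjusted p was 0.331.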
